A study of Mus musculus with 7 samples.

Results

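A group of 10 chloride channel genes was followed across the arrays. They are the 5 genes of the Lrrc8 family (Lrrc8a to Lrrc8e), Clic4 and Clic5, Ano1 and Ano6, and Clcn3. They were taken by gene symbol from the annotation of the array platform, and all 10 were found, each with 1 probe set, among 19938 measured genes. The choice was made with the differences between weaned and suckling mice already known, and Clic5 was then among the genes with the smallest p, so the differences of the 10 genes are given as a description, without a test. RNA came from pancreatic cells of insulin-Cre; Rosa26-LSL-YFP mice on the ICR background, aged 25 days. In these animals a Cre recombinase driven by an insulin promoter switches on a yellow fluorescent protein at the Rosa26 locus, and 2000 to 6000 fluorescent cells were sorted from each mouse. In 3 mice weaning had been brought forward to day 18, and the other 4 mice were suckling; each mouse gave 1 array, and both groups carried the same alleles. Replicates are named by the numbers in the labels, which are 4, 5 and 12 for weaned and 2, 9, 11 and 12 for suckling mice.

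Chloride channels set how far the membrane voltage of a cell shifts when chloride crosses it. Beta cells hold chloride above its equilibrium, so that opening a chloride channel lets the ion out and depolarises the cell. The volume-regulated anion channel, which opens when a cell swells, is built from LRRC8 proteins: LRRC8A is required in every channel, and LRRC8B to LRRC8E join it and set which ions and small organic molecules pass. In mouse beta cells LRRC8A-dependent current is known to take part in glucose-stimulated insulin secretion.

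The mean of 11 measured beta-cell markers lay between 9.84 and 9.99 log2 intensity on every array. Markers of other islet cells were also present, with means of 6.75 to 7.33 for the 3 measured alpha-cell markers and 7.81 to 8.17 for the 5 markers of delta and PP cells. These means join bright hormone genes with much lower transcription factor genes. Gcg gave 11.73 to 12.32, Sst 11.46 to 12.22 and Ppy 10.73 to 11.94, while Irx1 gave 3.92 to 4.53 and Hhex 3.04 to 4.30. The list means therefore do not compare amounts of RNA between islet cell types. List means of endothelial, stellate, leukocyte and Schwann cell markers stayed between 3.07 and 3.73 on every array, but single markers departed from them. C1qa, a leukocyte marker, gave 7.94 to 8.21 on weaned and 7.45 to 8.04 on suckling arrays. C1qb, a related marker, was far lower, at 3.64 to 3.82 on weaned and 3.59 to 4.31 on suckling arrays. Its difference pointed the other way (-0.23, SE 0.17). Of the 11 measured leukocyte markers 6 were dim in both groups, and on average 5 were higher and 6 lower in weaned mice. The groups did not overlap for 1 of 11 leukocyte markers, Tyrobp, which was higher in weaned mice. They did not overlap for 3 of 12 stellate markers, all lower in weaned mice, beside 7.32% of all genes. The part of these cells in the levels of the 10 genes was not tested. The 95th percentile of the level of 1027 olfactory receptor genes, used here as the level below which a probe set is called dim, was 3.27. Acinar markers varied widely, with list means of 3.77, 3.79 and 5.62 on weaned replicates 4, 5 and 12, and of 7.34, 7.13, 4.01 and 4.72 on suckling replicates 2, 9, 11 and 12. Y-linked transcripts gave signal on weaned replicate 4 (list mean 6.22) and on suckling replicates 9 (5.84) and 12 (6.35), so each group held arrays with and without it. The sample descriptions carry one code on all weaned arrays and another on all suckling arrays, and what the code stands for cannot be told apart from weaning.

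Of these genes 3 were higher on every weaned array than on every suckling array: Lrrc8c, Clic5 and Lrrc8b. The other 7 overlapped between the groups. Lrrc8b, Lrrc8c and Lrrc8d are consecutive measured genes on chromosome 5 and lie on the same strand, and Clic5 is on chromosome 17. The 250 bases before the annotated start of these 4 genes (RefSeq, GRCm38.p6, all on the plus strand, 5′ to 3′) are shown because the first 2 of the chromosome 5 genes separated the groups while their neighbour Lrrc8d did not. Capitals mark matches on either strand to the GC box GGGCGG and to the CCAAT box CCAAT.
Lrrc8b, chr5:105415525-105415774: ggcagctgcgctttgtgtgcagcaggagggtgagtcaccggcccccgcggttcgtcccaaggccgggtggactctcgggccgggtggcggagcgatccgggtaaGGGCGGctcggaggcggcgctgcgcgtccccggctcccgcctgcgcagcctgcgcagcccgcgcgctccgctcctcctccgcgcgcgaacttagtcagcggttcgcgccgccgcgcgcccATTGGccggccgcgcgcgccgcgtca
Lrrc8c, chr5:105519221-105519470: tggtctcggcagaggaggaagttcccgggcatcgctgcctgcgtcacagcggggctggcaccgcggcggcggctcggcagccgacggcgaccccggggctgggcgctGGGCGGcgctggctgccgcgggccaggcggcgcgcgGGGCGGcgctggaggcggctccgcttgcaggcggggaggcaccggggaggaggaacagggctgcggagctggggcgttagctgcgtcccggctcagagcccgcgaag
Lrrc8d, first of its 2 annotated starts, chr5:105699719-105699968: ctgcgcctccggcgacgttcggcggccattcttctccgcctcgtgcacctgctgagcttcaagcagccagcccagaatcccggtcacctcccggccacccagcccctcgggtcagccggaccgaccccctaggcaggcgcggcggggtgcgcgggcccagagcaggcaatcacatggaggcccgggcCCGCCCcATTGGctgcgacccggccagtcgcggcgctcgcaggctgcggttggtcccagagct
Clic5, chr17:44188322-44188571: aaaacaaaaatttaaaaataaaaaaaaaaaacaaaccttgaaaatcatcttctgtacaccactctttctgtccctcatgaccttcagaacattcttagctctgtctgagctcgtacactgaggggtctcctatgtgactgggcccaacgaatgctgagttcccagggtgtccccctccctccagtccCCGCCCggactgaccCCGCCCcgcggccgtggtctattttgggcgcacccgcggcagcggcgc
The Lrrc8 windows are rich in CpG, with 43 CpG dinucleotides for Lrrc8b, 35 for Lrrc8c and 27 for Lrrc8d, where the median of 32851 promoter windows of this length was 6. The Clic5 window holds 13, and 29.4% of all windows hold more. Its GC content of 52.8% is close to the median of 52.4%, while the Lrrc8b, Lrrc8c and Lrrc8d windows reach 77.2%, 78.4% and 73.2%. The GC box occurs in all 4 windows, once for Lrrc8b and for Lrrc8d and 2 times each for Lrrc8c and Clic5, and in 32.7% of all windows. That share is not matched for GC content. The GC box also occurs for Lrrc8a, Clic4, Ano1, Ano6 and the first window of Clcn3, whose groups overlapped, and not for Lrrc8e. The CCAAT box occurs once each for Lrrc8b and Lrrc8d, and in 33.8% of all windows. No window of the 4 holds the letters TATAAA (12.4% of all), the E-box CACGTG (6.02%) or GGAAA, the core shared by NFAT-type elements (55.6%). The GC box matches overlap no CCAAT match. A match is a stretch of letters and was not tested as a binding site.

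Lrrc8a, which encodes the subunit required in every volume-regulated channel, gave 5.87, 5.67 and 6.34 log2 intensity on weaned replicates 4, 5 and 12. On suckling replicates 2, 9, 11 and 12 it gave 5.95, 5.66, 6.01 and 6.19. The highest and the lowest arrays came from different groups, and the ranges lay almost on top of each other. Its means were 5.96 ± 0.34 (SD, n = 3) and 5.95 ± 0.22 (n = 4). The log2 difference, weaned minus suckling, was 0.010 (SE 0.18, 95% interval -0.40 to 0.42), and its sign depended on single arrays, with -0.18 without weaned replicate 12 and 0.16 without weaned replicate 5.

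Lrrc8c, whose protein joins LRRC8A in swelling-activated channels, had the widest difference of the 10 genes. Its levels were 7.53, 8.25 and 8.34 on weaned replicates 4, 5 and 12 and 6.56, 7.21, 6.19 and 6.89 on suckling replicates 2, 9, 11 and 12. The lowest weaned array exceeded the highest suckling array by 0.32. Both groups were scattered, with SDs of 0.44 each, a spread well below the distance between the means.
The mean was 8.04 in weaned and 6.71 in suckling mice, a 2.50-fold higher intensity and a log2 difference of 1.32 (SE 0.26, 95% interval 0.73 to 1.92). By size this difference ranked 28 of 19938 genes. Leaving out 1 array at a time gave 1.15 to 1.58.

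Lrrc8b, a subunit found in the same channels, differed less but with little scatter. It gave 5.56, 5.41 and 5.27 in weaned mice and 5.14, 4.98, 5.02 and 5.00 in suckling mice, in the order of replicates used above. The groups were separated by 0.14, and the suckling arrays lay within a narrow range. Means were 5.42 ± 0.14 and 5.03 ± 0.073, a 1.30-fold higher intensity in weaned mice (log2 difference 0.38, SE 0.11, 95% interval 0.13 to 0.64). With 1 array left out the difference was 0.31 to 0.45.

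Lrrc8d, whose protein favours the passage of organic osmolytes such as taurine, is the third gene of this cluster. It gave 7.38, 7.004 and 7.52 in weaned mice and 7.15, 7.25, 7.52 and 7.54 in suckling mice. The groups overlapped over most of their range. Its log2 difference was -0.064 (SE 0.16, 95% interval -0.42 to 0.29). Without weaned replicate 5 the sign turned (0.084). Lrrc8e, the remaining partner subunit, was near the dim level, at 3.23 to 3.72 on weaned and 3.08 to 3.64 on suckling arrays, and differed by 0.11 (SE 0.17).

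**Figure D1:**
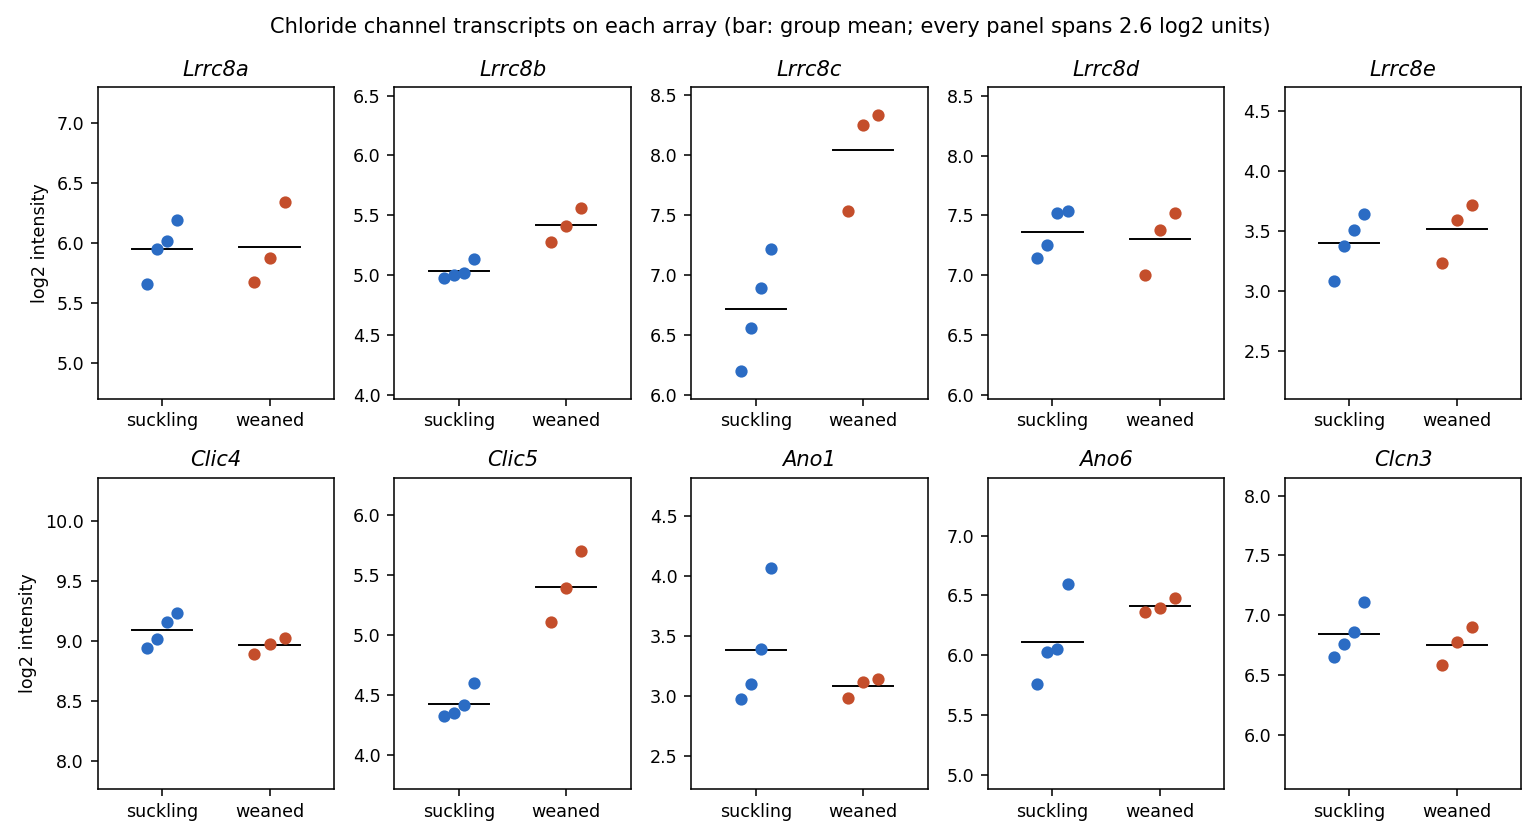
Log2 intensity of each of the 10 chloride channel genes on every array (y axis), by group (x axis, 4 suckling and 3 weaned mice); points are arrays and bars are group means, and every panel spans the same number of log2 units. In Lrrc8b, Lrrc8c and Clic5 every weaned array lies above every suckling array, while Lrrc8a and Lrrc8d overlap.

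The CLIC proteins exist in a soluble form and a membrane-bound form, and are tied to actin-rich membrane structures; CLIC5 sits with radixin at the base of hair-cell stereocilia in the mouse. Clic5 gave 5.11, 5.39 and 5.70 on weaned replicates 4, 5 and 12. On suckling replicates 2, 9, 11 and 12 it gave 4.41, 4.35, 4.32 and 4.60. This was the clearest separation among the 10 genes, with a gap of 0.51 between the groups and suckling arrays close to each other. Means were 5.40 ± 0.29 and 4.42 ± 0.12, a 1.97-fold higher intensity in weaned mice (log2 difference 0.98, SE 0.15, 95% interval 0.64 to 1.32). Leaving out 1 array at a time gave 0.83 to 1.12. Its relative Clic4, a broadly expressed CLIC protein, gave 8.89 to 9.02 on weaned and 8.94 to 9.23 on suckling arrays. Clic4 thus varied little over all arrays, and its difference of -0.12 (SE 0.11, 95% interval -0.38 to 0.13) pointed the other way.

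The anoctamins ANO1 and ANO6 answer to calcium: ANO1 is a calcium-activated chloride channel of secretory epithelia, and ANO6 is both an ion channel and a lipid scramblase. Ano6 gave 6.40, 6.36 and 6.48 in weaned mice and 5.76, 6.05, 6.03 and 6.60 in suckling mice. Suckling replicate 12 was the highest of all 7 arrays, and the other 3 suckling arrays lay below every weaned array. The mean difference was 0.30 (SE 0.18, 95% interval -0.11 to 0.71), with 0.46 without suckling replicate 12, 0.19 without suckling replicate 2 and 0.19 (SE 0.20) with the acinar list mean as a covariate. Ano1 was at the dim level on the weaned arrays (2.98 to 3.14) and reached 4.07 on suckling replicate 12, with 3.10, 2.98 and 3.39 on suckling replicates 2, 9 and 11, the first 2 of them also below the dim level. Its difference of -0.30 (SE 0.23) was -0.075 without suckling replicate 12, -0.52 (SE 0.24) with the acinar covariate and -0.65 (SE 0.21) without suckling replicates 2 and 9. Suckling replicate 12 also had the highest mean of the 7 measured duct-cell markers, 5.46 against 4.89 to 5.19 on the other suckling and 4.84 to 5.05 on the weaned arrays. Krt19, a keratin of duct cells, gave 6.84 on it and 3.60 to 5.63 on the others, and Muc1, a mucin, 4.57 and 3.15 to 3.96. The other duct-cell markers were mixed on this array. Epcam (8.10) and Onecut1 (3.79) were also the highest of the suckling arrays, while Sox9 (4.13) and Car2 (2.65) were the lowest. Krt7 (8.13) lay within the range of the other suckling arrays. Of the 7 markers 2, Muc1 and the dim Car2, were lower on every weaned array, and the other 5 overlapped. The part of duct cells in the Ano1 value was not tested. Clcn3, which encodes a chloride-proton exchanger of endosomes and secretory vesicles, gave 6.90, 6.78 and 6.58 on weaned and 6.65, 6.76, 6.86 and 7.11 on suckling arrays, so the groups overlapped. It differed by -0.093 (SE 0.14, 95% interval -0.41 to 0.22).

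**Figure D2:**
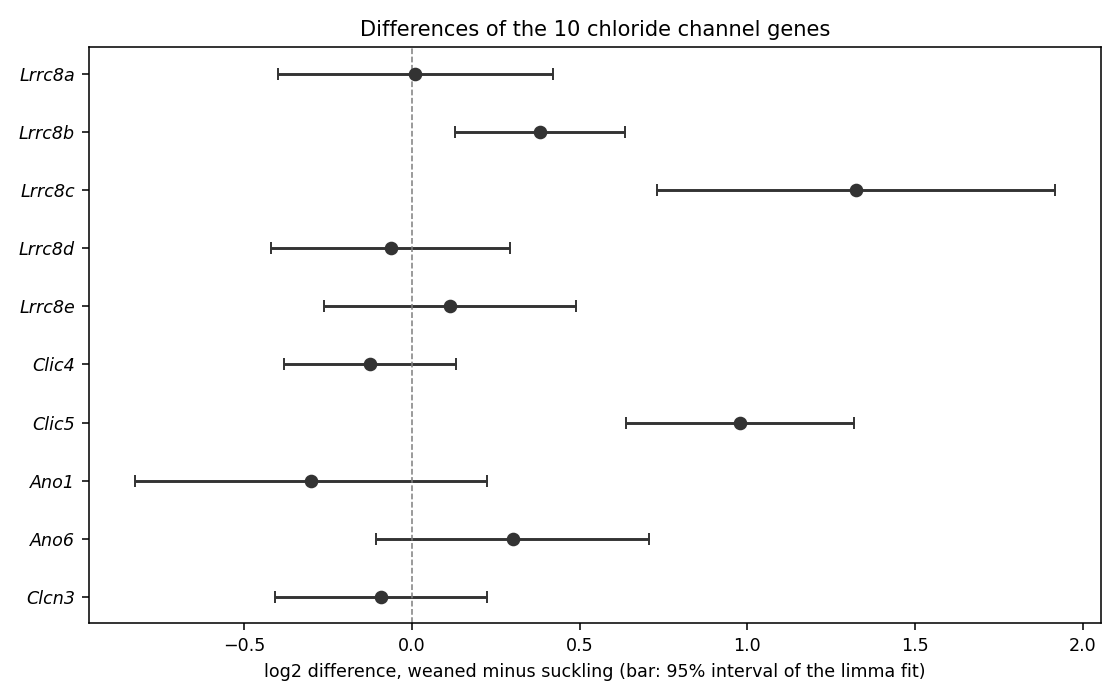
Log2 difference (weaned minus suckling, x axis) of each of the 10 genes (y axis), with the 95% interval from the limma fit over all genes as bars (3 weaned and 4 suckling arrays). The values run from -0.30 for Ano1 to 1.32 for Lrrc8c, and the intervals describe precision only, since the genes were chosen on this contrast.

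In limma's fit over all genes, none of the 10 passed an adjusted p of 0.05 (the smallest was that of Clic5), a threshold passed by 0.015% of all genes, 0.00502% higher and 0.01% lower in weaned mice. At an unadjusted p under 0.05 there were 3 of the 10, all higher, against 7.58% of all genes (4.39% higher and 3.19% lower), and the groups did not overlap for 3 of the 10, all higher in weaned mice, against 3.9% of all genes higher and 3.43% lower. Since the genes were chosen on this contrast, nothing is read from these shares. On average 6 of the 10 were higher in weaned mice, as were 50.1% of all genes. Their median difference was 0.062, beside 0.00047 over all genes.

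The separation of Lrrc8c, Clic5 and Lrrc8b was set beside the other signals that varied between arrays. Suckling replicates 2 and 9 had the most acinar signal; Lrrc8c was second lowest and highest of the suckling arrays on them, and Clic5 was second highest and second lowest. With the acinar list mean as a covariate the differences were 1.55 (SE 0.27) for Lrrc8c, 1.03 (SE 0.18) for Clic5 and 0.37 (SE 0.14) for Lrrc8b. With the Y-linked list mean as a covariate they were 1.34, 0.96 and 0.39. Without suckling replicates 2 and 9 together they were 1.50, 0.94 and 0.41. With all arrays and no covariate they were 1.32, 0.98 and 0.38. The acinar list mean itself differed between the groups, at 4.39 in weaned and 5.80 in suckling mice. The part of acinar and Y-linked signal in the differences was not tested. LRRC8C and CLIC5 are also found in vascular cells. Of the 14 endothelial markers 5 were dim in both groups, among them Pecam1, Cdh5 and Kdr, and the list mean was 3.27 to 3.48 on weaned and 3.20 to 3.56 on suckling arrays. Only Cldn5 of this list had an unadjusted p under 0.05, at 4.31 ± 0.47 in weaned and 5.02 ± 0.40 in suckling mice (-0.71, SE 0.26, adjusted p = 0.606 by limma), with overlap. Erg was lower on every weaned array (-0.26, SE 0.12) with a dim weaned mean, and Egfl7 had a difference of 0.30 (SE 0.17) with overlap; these 3 were picked after their values were seen. The part of these cells in the differences was not tested. Pecam1, an adhesion molecule of endothelium, gave 2.78 to 3.06 on weaned and 2.79 to 3.27 on suckling arrays. The genes of the response to tissue dissociation had list means of 6.05, 6.73 and 5.79 in weaned mice and 5.69 to 6.18 in suckling mice, and their part in the differences was not tested. In sorted cell pools of this kind, fewer cells of a type and less RNA per cell cannot be told apart.

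Genes next to the separating genes on the chromosome gave a measure that the choice of the 10 did not use. They were picked by position, 4 measured genes on each side, after the levels of the 10 had been seen. Around Lrrc8b, Lrrc8c and Lrrc8d the 8 flanking genes differed by -0.30 to 0.65, none had an unadjusted p under 0.05 (limma), and the groups overlapped in all of them. On one side lie 4 genes of the interferon-induced guanylate-binding protein family, which resemble each other in sequence, so that their probe sets may share signal. The nearest of these, Gbp11, an annotated pseudogene, had the widest difference of the 8 at 0.65 (SE 0.35, adjusted p = 0.7 by limma). On the other side Zfp326, which encodes a zinc finger protein, differed by 0.080 (SE 0.14) and Zfp644 by 0.044 (SE 0.11). Around Clic5 the 8 flanking genes differed by -0.44 to 0.18, and the groups did not overlap in 2 of them, Enpp5 and Cdc5l, beside 7.32% of all genes. Cdc5l, which encodes a splicing factor, was higher on every weaned array by a small difference (0.071, SE 0.099). One of them, Enpp5, which encodes a membrane-bound phosphodiesterase family member, had an unadjusted p under 0.05, at 8.17 ± 0.16 in weaned and 8.54 ± 0.22 in suckling mice (-0.38, SE 0.15, adjusted p = 0.63 by limma). The measured genes nearest to Clic5 on either side, Enpp4 and Supt3, differed by 0.060 (SE 0.13) and -0.054 (SE 0.15). So 1 of 16 flanking genes had an unadjusted p under 0.05, beside 7.58% of all genes, and 0 passed an adjusted p of 0.05.

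**Figure D3:**
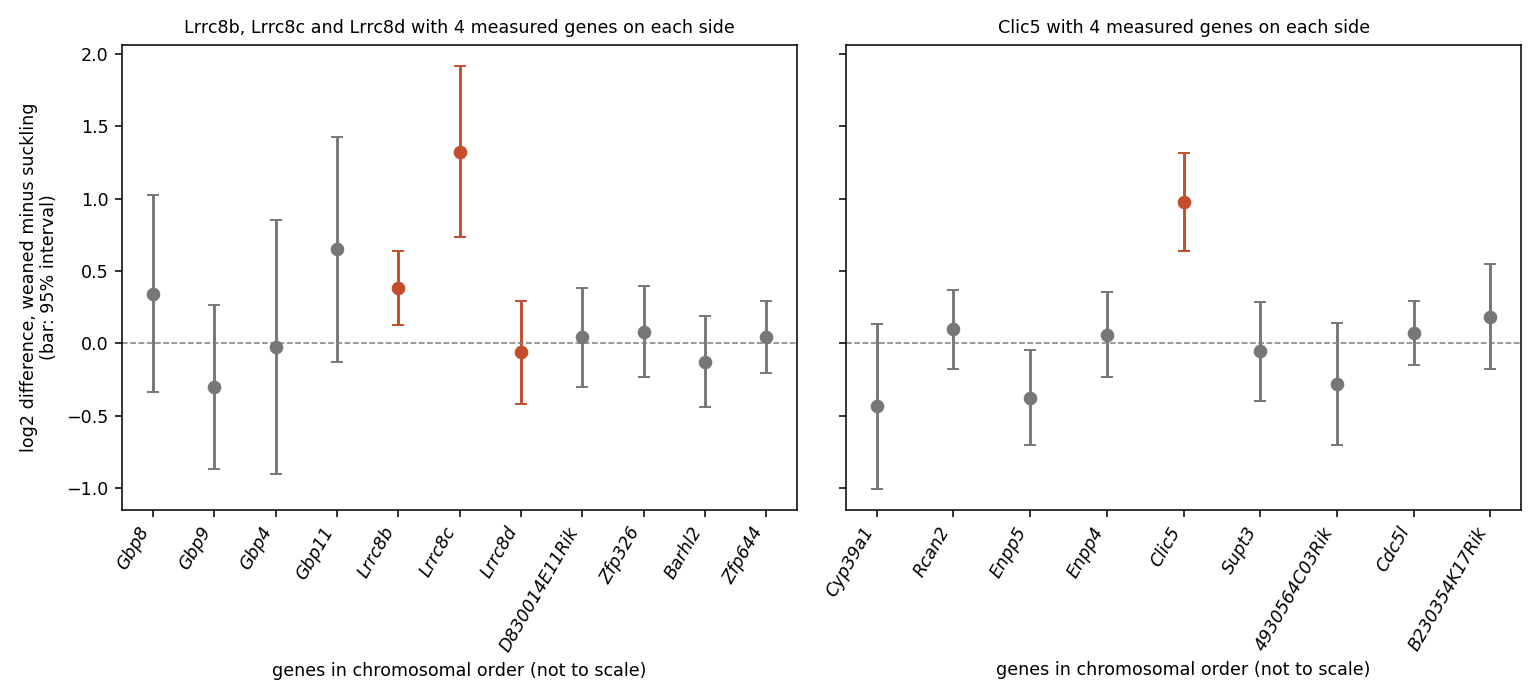
Log2 difference (weaned minus suckling, y axis) of genes in chromosomal order (x axis, not to scale) around Lrrc8b, Lrrc8c and Lrrc8d (left) and around Clic5 (right), with 95% intervals of the limma fit as bars; the 10 followed genes are in red and flanking genes in grey. The flanking genes range from -0.30 to 0.65 (left) and from -0.44 to 0.18 (right). Lrrc8b (0.38) lies within the range on the left. Lrrc8c (1.32) and Clic5 (0.98) lie above their flanking genes, which would hold beside most genes, since they were chosen with this contrast known.

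Other genes of chloride and volume handling were followed in 4 lists. No member of these lists passed an adjusted p of 0.05 (limma), and the smallest adjusted p among them was 0.518. Of the 86 different genes measured in these lists, 9 had an unadjusted p under 0.05, 8 of them higher and 1 lower in weaned mice, beside 4.39% of all genes higher and 3.19% lower. The groups did not overlap for 8 of the 86, all 8 higher and 0 lower in weaned mice, beside 3.9% of all genes higher and 3.43% lower. After centring the arrays on their medians, the split of all genes at an unadjusted p under 0.05 was 1184 higher and 434 lower, where it was 875 and 637 without centring.

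Among 27 other chloride channels and their subunits, 14 were higher on average in weaned mice, with a median difference of 0.011. Those higher at an unadjusted p under 0.05 were Clcn7, Ano9 and Ano4. Clcn7, the chloride-proton exchanger of lysosomes, differed by 0.52 (SE 0.18) and by 0.30 without weaned replicate 4. Ano9, an anoctamin, gave 3.68 to 3.74 on weaned and 3.31 to 3.50 on suckling arrays (0.32, SE 0.10). Its suckling levels were close to the dim level of 3.27. Ano4 was dim in both groups, and its difference is not given. Clic3, another CLIC gene, was lower, at 4.10 ± 0.23 in weaned and 4.55 ± 0.26 in suckling mice (-0.45, SE 0.17).

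Chloride transporters of the SLC12, SLC4 and SLC26 families and the WNK-pathway kinases that regulate them had a median difference of 0.011, with 16 of 30 measured genes higher in weaned mice. Those higher at an unadjusted p under 0.05 were Slc26a2 and Slc12a7. Slc26a2, a sulphate and anion exchanger, gave 5.44 to 5.55 on weaned and 5.08 to 5.34 on suckling arrays (0.29, SE 0.11). Slc12a7, the potassium-chloride cotransporter KCC4, differed by 0.35 (SE 0.15).

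Genes of osmolyte and water handling had a median of 0.0049, with 10 of 19 higher. Those higher at an unadjusted p under 0.05 were Aqp7, Aqp4 and Sgk1. Aqp7, an aquaglyceroporin that carries glycerol as well as water, gave 4.40, 4.78 and 4.62 in weaned mice and 3.98, 3.90, 4.33 and 4.20 in suckling mice, without overlap (0.50, SE 0.14, adjusted p = 0.518 by limma). The water channel gene Aqp4 differed by 0.36 (SE 0.14) and Sgk1, a kinase induced by cell shrinkage and by steroids, by 0.44 (SE 0.20). Aqp7 was at 0.38 with the acinar covariate, 0.34 without suckling replicates 2 and 9, and 0.41 to 0.60 with 1 array left out. Aqp4 was at 0.24 without weaned replicate 4, 0.23 with the acinar covariate and 0.23 without suckling replicates 2 and 9, and Sgk1 at 0.29 without suckling replicate 2. The median of this list turned with single arrays, from -0.077 without suckling replicate 12 to 0.086 without weaned replicate 12.

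Ezrin-type linkers and other actin partners of CLIC proteins had a median of -0.031, with 4 of 10 higher and none at an unadjusted p under 0.05. The 2 with the smallest p were Slc9a3r1, a scaffold that binds ezrin (0.25, SE 0.11), and Msn, moesin, at -0.41 (SE 0.20) with a dim weaned mean. Leaving out weaned replicate 5 brought Msn to -0.19, and leaving out weaned replicate 12 brought it to -0.61 (unadjusted p = 0.0103 by limma). The median of this list was -0.11 with the acinar covariate.

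**Figure D4:**
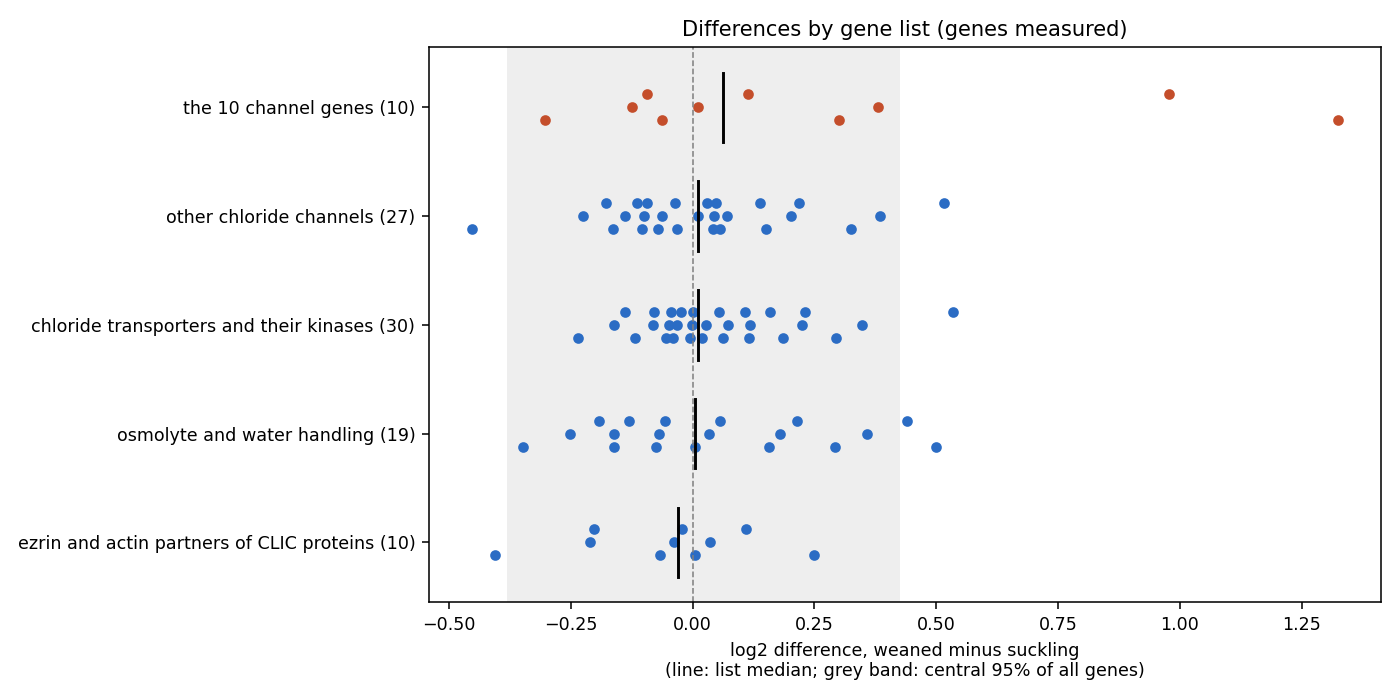
Log2 difference (weaned minus suckling, x axis) of every measured gene in the 10 followed genes and in 4 lists of chloride and volume handling genes (y axis); vertical lines are list medians and the grey band holds the central 95% of all genes, from -0.38 to 0.42. Medians of the 4 lists lie between -0.031 and 0.011. Single genes outside the band are Slc26a1 (0.53), Clcn7 (0.52), Aqp7 (0.50), Sgk1 (0.44), Clic3 (-0.45) and Msn (-0.41) in the lists, and Lrrc8c and Clic5 among the followed genes. Slc26a1 has an SE of 0.48, with 3.29 to 5.08 on weaned and 3.12 to 4.61 on suckling arrays.

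The genes whose pattern over the arrays was most like that of Clic5 and of Lrrc8a were taken by Pearson's r over 7 arrays among 17149 named genes, as a description with no p, since each was picked for its r. Over so few arrays many genes reach a high r: 99 genes had an r above 0.9 with Clic5 and 32 with Lrrc8a. Closest to Clic5 were Lhfpl1 (r = 0.992), which was dim in both groups, Rara, a retinoic acid receptor (0.987), and Blm, a DNA helicase (0.981). The suckling mean of Blm, 3.13, was also under the dim level. With the group means taken out, r was 0.93 for Lhfpl1, 0.94 for Rara and 0.83 for Blm, so a shared group difference is part of the likeness. Rara was at 4.89 in weaned and 4.52 in suckling mice on average. Closest to Lrrc8a were Hpca, the calcium sensor hippocalcin (r = 0.981), Ptges2, a prostaglandin synthase (0.976), and Ptgdr2, a prostaglandin receptor (0.948), which differed by 0.0043, 0.023 and 0.011 between the groups. All points share the arrays and their amplification.

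**Figure D5:**
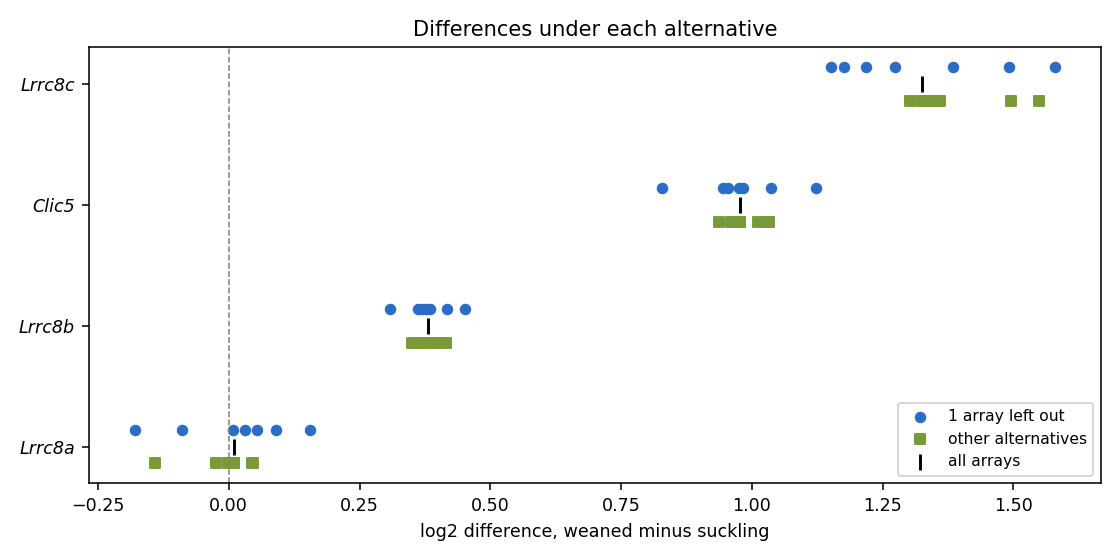
Log2 difference (weaned minus suckling, x axis) of Lrrc8c, Clic5, Lrrc8b and Lrrc8a (y axis) with all arrays (black bar), with 1 array left out (blue circles) and under the other alternatives (green squares). Lrrc8c stays between 1.15 and 1.58, Clic5 between 0.83 and 1.12 and Lrrc8b between 0.31 and 0.45, while Lrrc8a falls on both sides of 0.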

How the data were processed

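Per the labels' protocols, total RNA of sorted cells from 7 mice was purified on RNeasy micro columns, amplified with Ovation Pico System V2 reagents and hybridised to Affymetrix arrays. For the deposited intensity values the submitters' processing notes name RMA and Partek 6.6; settings are not given in the sources used here. They range from 1.45 to 12755 on a linear scale, with array medians of 14.1 to 14.9, so log2 was taken; RMA shrinks differences of dim probe sets. All 7 value columns were used. Of 35556 probe sets, 21789 name 1 gene, 1621 several and 12146 none; 21698 were matched by gene ID to RefSeq (GRCm38.p6), used for names, gene order and promoter sequences. For 999 genes with several probe sets the brightest was used, leaving 19938 genes. The platform annotation names no genome build, so coordinates are given for the RefSeq promoter windows only.

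Groups were compared with limma 3.58.1 (lmFit and eBayes, R 4.3.3), two-sided and without a filter, and p-values were adjusted by Benjamini-Hochberg over all genes (threshold 0.05). Each mouse is 1 replicate, and the number of arrays limits the precision (median SE 0.14). The fit was run on simulated data with 3 against 4 arrays and noise drawn independently for each gene. In each of 20 draws, 200 of 19938 genes were changed 1.5-fold, 2-fold or 4-fold. Of genes changed 1.5-fold 29.3% passed the threshold, and of genes changed 2-fold 94.8%. The adjusted threshold is easier to pass when many genes change. In the measured data 3 genes passed, so these shares do not give the sensitivity there. Clic5, at 1.97-fold, had an adjusted p of 0.215 by limma. Signals shared by many genes, such as acinar signal, were not simulated. The members, lists, and tests were chosen with earlier results of these data known. From each pathway list the text names up to 4 genes with the smallest p under 0.05 unadjusted, otherwise 2. From the lists of cell markers it names up to 3, but more from the endothelial and duct-cell lists. Some endothelial, leukocyte, islet and duct-cell markers were picked after their values were seen. Alternatives were quantile normalization, median centring, an intensity trend with a robust prior, a filter at the 25th percentile of level, the mean of probe sets, array weights, acinar and Y-linked covariates, leaving out each array and, added later, suckling replicates 2 and 9 together. Probe sets with several genes were not analysed here.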

Additional observations from a re-analysis of the deposited data

Results flagged for a closer look

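Among 59 genes and list means checked for a single suckling array that stands apart, 5 did so; chance gives about 1 in 20. The mean over the 10 channel genes was 6.074 on suckling replicate 12, against 5.725 to 5.774 on the other suckling arrays. That array had the highest level of Lrrc8a, Lrrc8d, Clic4, Clic5, Ano1, Ano6 and Clcn3 in its group and the highest mean of the duct-cell markers (5.46, against 4.89 to 5.19 on the other suckling arrays), and was 1 of the 2 suckling arrays with Y-linked signal. Among the duct-cell markers, Sox9 and Car2 were the lowest of the suckling arrays on that array. On suckling replicate 2, the array with the most acinar signal, the mean of the other chloride channels was 4.935 (5.021 to 5.027 on the other suckling arrays), that of the osmolyte and water list 4.617 (4.689 to 4.694) and that of the alpha-cell markers 7.333 (7.08 to 7.105). Rcan2, a gene near Clic5, was at 5.581 on suckling replicate 11 (5.81 to 5.847 on the others). The causes were not tested.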

How the results depend on the processing

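No paired analysis was run, because the labels name no pairs of mice between the groups. Lrrc8b, Lrrc8c and Clic5 kept their direction under all 16 alternatives, as did Lrrc8e, Clic4, Ano1, Ano6 and Clcn3; Lrrc8d kept it in 15 of 16 and Lrrc8a in 10 of 16, none of them called. Genes past an adjusted p of 0.05 (limma) numbered 3, with 6 after median centring, 7 after the filter on dim genes (fewer genes tested), 9 with the trend and robust prior, 5 with the mean of probe sets, 5 with quantile normalization, 1 to 3 with 1 array left out (1 without suckling replicate 9, 11 or 12 or weaned replicate 4 or 5) and 0 without suckling replicates 2 and 9, where an unadjusted p under 0.05 was reached by 482 genes in the higher direction and 607 in the lower. In the fit of all arrays 875 genes were in the higher and 637 in the lower direction, with 562 and 605 under the acinar covariate and 1184 and 434 after median centring.

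At an unadjusted p under 0.05, the transporter list had 2 genes, with 1 under the acinar covariate, quantile normalization, the Y-linked covariate or without suckling replicates 2 and 9, 0 with the trend and robust prior and 0 to 3 with 1 array left out. The list of CLIC partners had 0, with 1 after median centring and 0 to 2 with 1 array left out. The osmolyte list had 3, with 1 under the acinar covariate, 0 without suckling replicates 2 and 9 and 1 to 5 with 1 array left out. The other channels had 4, with 2 under the acinar covariate and 1 to 5 with 1 array left out. With 1 array left out the list medians ran from 0.0086 to 0.060 for transporters, -0.094 to 0.025 for CLIC partners, -0.077 to 0.086 for osmolyte genes and -0.030 to 0.037 for other channels; that of the 10 genes ran from -0.041 to 0.15. The median of CLIC partners was -0.11 with the acinar covariate and -0.15 without suckling replicates 2 and 9, that of other channels -0.051 and -0.035, that of transporters 0.0018 without suckling replicates 2 and 9, and that of osmolyte genes 0.046 after the filter on dim genes. The causes were not tested. Signal near the dim level limits what can be said of Lrrc8e, Ano1 and Ano9.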
